A study of Mus musculus with 18 samples.

Results

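Aspartate was added to aminotransferase-inhibited L929 cells, a mouse fibroblast line, and the comparison described here is of 3 cultures given aminooxyacetic acid (AOA) with aspartate against 3 cultures given AOA alone, none of which received foreign DNA. These 6 of the 18 libraries were picked by their labels, and the comparison was chosen with earlier results of these data known. The dose of AOA was 0.5 mM, begun 1 h before HT-DNA where that followed, and that of aspartate was 20 mM (the group AOA+Asp). How long the cultures without HT-DNA were kept with AOA and aspartate is not stated separately in the sources used here. The 3 Mock cultures received neither and show the level of a gene without AOA. The remaining 9 libraries came from the same line given herring testis DNA (HT-DNA, 0.5 µg/ml for 6 h), with no inhibitor, with AOA, or with AOA and aspartate at the same doses, 3 cultures each. No group received aspartate without AOA, so what aspartate did to cells with working aminotransferases was not measured. All 18 libraries are of this 1 line with no change of genotype. The p-values rest on the spread between the 3 cultures of a group, estimated over all 18 libraries in 1 fit. The study asked whether the loss of aspartate and its return move the response to cytosolic DNA, and the libraries without HT-DNA show what the same treatments did to resting cells.

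AOA blocks the enzymes that move amino groups between amino acids and keto acids, among them the cytosolic and mitochondrial aspartate aminotransferases GOT1 and GOT2. Aspartate is used for protein, for asparagine, for the ring of pyrimidines and for the nitrogen of purines, and through the malate-aspartate shuttle it links cytosolic and mitochondrial redox state. When an amino acid runs short, uncharged tRNA activates the kinase GCN2, the initiation factor eIF2 is phosphorylated, and the transcription factor ATF4 is translated, which turns on genes for amino acid synthesis, amino acid uptake and tRNA charging.

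The libraries held 17901605 to 24057343 estimated counts each, and of 57180 genes 14263 passed the filter on low counts and were tested. On the first principal component, which held 32% of the variance, the AOA+Asp libraries lay at -28.08 to -25.44, the Mock libraries at -23.79 to -23.33 and the AOA libraries at 3.156 to 7.455. Replicates of the 6 libraries differed from each other by 5.809 to 12.1 times the counting noise (chi-square per degree of freedom), while HT-DNA+AOA replicates 1 and 3 differed by 60.84 times, the widest pair of the series. Fibroblast markers were only partly present: 8 of 11 passed the filter, and Thy1, Lum and Dcn were near 0. Of the markers of other cell types, 1 of 7 immune genes (Cd68), 1 of 6 epithelial genes (Krt19) and 0 of 4 endothelial genes passed.

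Aspartate moved a large part of the expressed genes. Of 14263 genes tested, 3344 were higher in AOA+Asp than in AOA (23.4%) and 3256 were lower (22.8%) at an adjusted p under 0.05 (the quasi-likelihood test of edgeR, Benjamini-Hochberg adjusted, used for every adjusted p here). The median absolute log2 fold change of these genes was 0.51, and 494 rose and 529 fell by at least 2-fold. The ranges of the 3 AOA and 3 AOA+Asp libraries did not overlap in 4026 genes that were higher with aspartate (28.2% of those tested) and 4081 that were lower (28.6%). The median log2 fold change over all tested genes was -0.0093, the background against which the gene groups below are read. This background differed with transcript length, as given below. With library totals in place of TMM scaling the calls were 4086 higher and 2484 lower, so 62.2% of called genes in place of 50.7% were higher. In the RNA of whole cultures, fewer cells with a transcript and less of it per cell cannot be told apart.

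**Figure D1:**
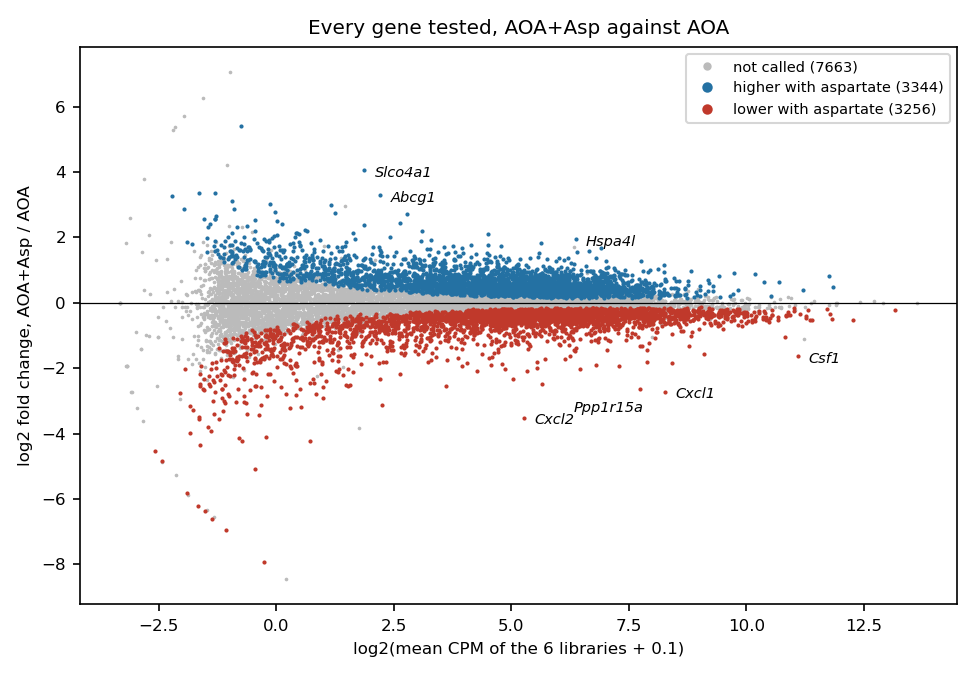
Each point is a gene tested, with its mean level in the 6 libraries (log2 counts-per-million, CPM) on the x axis and its log2 fold change, AOA+Asp against AOA, on the y axis. The 3344 genes higher and 3256 genes lower with aspartate are coloured, the 7663 not called are grey, and the labelled genes include Cxcl2 at -3.53 and Abcg1 at 3.28.

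AOA alone moved a similar number of genes, 3204 higher than in Mock (22.5%) and 3315 lower (23.2%). AOA+Asp differed from Mock in far fewer, with 360 higher (2.52%) and 563 lower (3.95%), of which 24 and 49 by at least 2-fold. The 3 comparisons share libraries: the AOA libraries stand in the first and the second, so values of AOA against Mock and of AOA+Asp against AOA are set side by side below and not tested against each other. The count of genes that differed between AOA+Asp and Mock was sensitive to the libraries, and fell to 359 without AOA+Asp replicate 1 and to 417, 441 and 570 without Mock replicates 1, 2 and 3. The split of this count also moved, with 231 higher and 873 lower by library totals, 853 and 750 once GC content and length were corrected for, 535 and 549 with no filter on low counts, and 1265 and 1195 when only these 2 groups were fitted. By library totals AOA against Mock gave 2125 higher and 4503 lower.

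Transcript length moved with the calls. Genes called higher with aspartate had a median longest transcript of 4122 bases and a GC content of 46.8%, genes called lower 2683 bases and 51.8%, and genes not called 2928 bases and 49.0%. When genes were put in 5 bins of equal number by length, 8.26% of the shortest bin were higher and 27.3% lower, and of the longest bin 39.8% and 13.4%. The median log2 fold change was -0.22 in the shortest bin and 0.20 in the longest, as large as several list medians below. Within single libraries the median log2 deviation from the mean of the libraries, in the longest bin minus that in the shortest, was -0.335 to -0.0946 in the AOA libraries, 0.0291 to 0.194 in AOA+Asp and -0.0118 to 0.167 in Mock. The part of length in the gene results was not tested. After correction for GC content and length within each library 5643 of the 6600 calls remained. Of 127 genes picked for a large change without overlap between groups, 124 kept their call. Of 30 list medians, 15 moved by at least their SD between replicates, and 2 others, larger than that SD, changed sign.

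**Figure D2:**
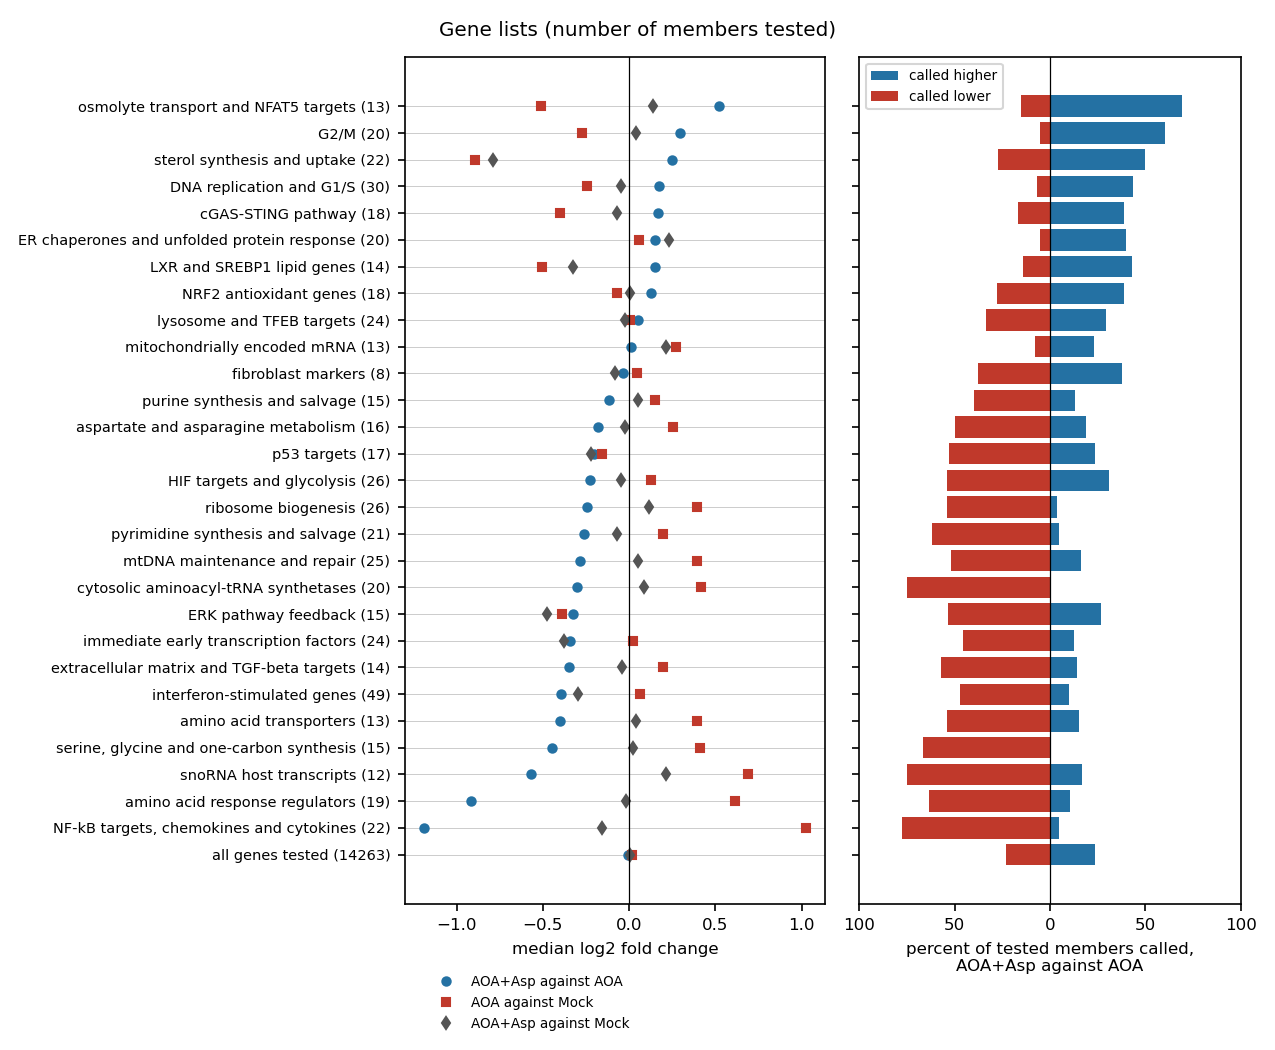
For each gene list with at least 8 tested members, the medians of the log2 fold changes AOA against Mock, AOA+Asp against AOA and AOA+Asp against Mock are drawn as points, beside the percent of members called in each direction in AOA+Asp against AOA. The share of all genes called in each direction stands on the row for all genes, and list counts below are read against it. NF-kB targets had the lowest median with aspartate (-1.19) and osmolyte genes the highest (0.52).

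Most genes of the amino acid response fell. Of 19 tested regulators of this response, 12 were lower with aspartate and 2 higher, with a median log2 fold change of -0.92, and of -0.58 over the members with at least 10 counts in every library. Against Mock, 13 of them were higher and 3 lower in AOA, and 4 higher and 1 lower in AOA+Asp. Ppp1r15a, the subunit that directs a phosphatase to eIF2, stood at 399, 365 and 345 CPM (TMM-scaled counts-per-million) in the 3 AOA libraries, at 57.5, 59.8 and 60.5 in AOA+Asp and at 50.4, 47.8 and 46.8 in Mock. The AOA libraries were all far above the others, and the AOA+Asp libraries were all just above Mock. The log2 fold change with aspartate was -2.64 (SE 0.0729, adjusted p = 1.33e-14), a 6.24-fold fall, and the remaining difference from Mock was 0.29 (SE 0.071, adjusted p = 0.0169).

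Ddit3, which encodes the stress transcription factor CHOP, was at 348, 374 and 386 CPM in AOA, 101, 104 and 107 in AOA+Asp and 47, 42.9 and 48.6 in Mock. No 2 of the 3 groups overlapped. It fell 3.54-fold with aspartate, a log2 fold change of -1.82 (SE 0.0898, adjusted p = 2.98e-11), and kept a difference from Mock of 1.17 (SE 0.0907, adjusted p = 8.61e-08). Chac1, an enzyme that breaks down glutathione, was at 41.5, 46.4 and 43.5 CPM in AOA, 10.3, 13.5 and 11.8 in AOA+Asp and 11.3, 12.7 and 10.9 in Mock. Its AOA+Asp libraries overlapped Mock and lay below every AOA library, with a log2 fold change of -1.89 (SE 0.124, adjusted p = 1.51e-09) against AOA and 0.027 (adjusted p = 0.941) against Mock. Trib3, a pseudokinase that restrains the ATF4 response, was at 239, 266 and 249.6 CPM in AOA and at 109, 128 and 127 in AOA+Asp, a log2 fold change of -1.05 (SE 0.101, adjusted p = 1.93e-07). The reads of Ppp1r15a and of Tulp2 on the opposite strand, and those of Ddit3 and Mars, cannot be told apart where the genes overlap, since the strand used in counting is not given in the sources used here. The same holds for other named genes, among them Nop56 with Idh3b, Fn1 with Apol7d, Endog with Spout1, Ccne2 with Ints8, Angpt2 with Mcph1, Slc25a11 with Rnf167, Cxcl10 with Art3 and Tlr3 with Gm45542.

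The transcript of Atf4 itself moved little: it was at 633, 676 and 676 CPM in AOA and 559.5, 587 and 577 in AOA+Asp, and the log2 fold change was -0.20 (SE 0.0804, adjusted p = 0.0449), although the ranges of the 2 groups did not overlap. Among secreted factors of the response, Fgf21 stood at 2.43, 1.8 and 1.98 CPM in AOA and 0.42, 0.294 and 0.463 in AOA+Asp (log2 fold change -2.37, SE 0.364, adjusted p = 3.85e-05). Gdf15 stood at 41.8, 45.2 and 45.7 CPM in AOA, 18.8, 19.8 and 18.6 in AOA+Asp and 28.1, 28.6 and 29.1 in Mock, so that every AOA+Asp library was below every Mock library. Its log2 fold change was -1.22 (SE 0.104, adjusted p = 4.66e-08) against AOA and -0.58 (SE 0.105, adjusted p = 0.00186) against Mock. Inhibitors of mTORC1 and of translation fell too, Ddit4 by a log2 fold change of -1.29 (adjusted p = 4.37e-08), Sesn2 with -0.93 (adjusted p = 1.53e-07) and Eif4ebp1 with -0.58 (adjusted p = 0.000116). Cebpb, a partner of ATF4, had a log2 fold change of -0.92 (adjusted p = 3.24e-05) and Jdp2 had a log2 fold change of -0.45 (adjusted p = 0.00129). The 2 members that rose were Eif2ak3, the eIF2 kinase of the endoplasmic reticulum, with 0.69 (adjusted p = 2.05e-05), and Atf5 with 0.33 (adjusted p = 0.0317). Cebpg and Nupr1 were not called with aspartate, at log2 fold changes of -0.08 (adjusted p = 0.534) and 0.064 (adjusted p = 0.506), and both were above Mock in AOA+Asp, with 0.45 (adjusted p = 0.00988) and 0.35 (adjusted p = 0.00847). Stc2 was the 1 listed regulator under the filter.

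The promoters of these genes were read for the amino acid response element, the site at which ATF4 binds with a C/EBP partner, as the letters TGATGNAAN on either strand from 250 bases before to 50 bases after the RefSeq start (GRCm38.p6). It was present in 7 of 19 regulators (36.8%), 5 of 13 aminoacyl-tRNA synthetases (38.5%), 3 of 10 amino acid transporters (30%) and 2 of 13 serine and glycine genes (15.4%) that matched a RefSeq entry, against 1215 of 27025 genes with a promoter (4.5%). A second search for the sterol regulatory element, TCACNCCAC, found 1 of 17 sterol genes, Hmgcs1 (5.88%), 0 in the other lists, and 388 of all genes (1.44%). Windows that lie upstream of the start are printed here for Chac1, Fgf21 and Pycr1, which fell with aspartate, for Atf3, which was not called, for Slc7a11, which holds the element and rose, and for Hmgcs1 as the sterol gene with a match. Each is written along the gene's own strand with each match in capitals (2 for Slc7a11), or its reverse complement where the element is on the opposite strand.
Atf3 (chr1:191183416-191183464, minus strand): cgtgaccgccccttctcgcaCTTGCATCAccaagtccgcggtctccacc
Chac1 (chr2:119351028-119351076, plus strand): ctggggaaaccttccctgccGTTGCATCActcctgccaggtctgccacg
Fgf21 (chr7:45615602-45615650, minus strand): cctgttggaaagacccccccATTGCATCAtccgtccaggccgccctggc
Pycr1 (chr11:120643823-120643871, minus strand): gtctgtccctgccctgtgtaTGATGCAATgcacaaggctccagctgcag
Slc7a11 (chr3:50443651-50443699, minus strand): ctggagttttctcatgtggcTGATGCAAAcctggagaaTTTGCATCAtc
Hmgcs1 (chr13:119690194-119690242, plus strand): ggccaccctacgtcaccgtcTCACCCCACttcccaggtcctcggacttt
A match is a description of these letters. Atf3, Nupr1 and Vldlr hold the element and were not called with aspartate, Atf3 at a level near 0 CPM with a log2 fold change of -2.55 (adjusted p = 0.099).

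Transcripts of most amino acid carriers moved in the same direction. Of 13 tested transporters 7 fell and 2 rose (median -0.40), while AOA against Mock gave 7 higher and 2 lower. Slc7a5, the light chain of the large neutral amino acid exchanger, was at 276, 288 and 267 CPM in AOA and 122, 145 and 138 in AOA+Asp, beside 151, 146 and 137 in Mock. Its partner chain Slc3a2 was at 349, 349.5 and 340.1 CPM in AOA, 198, 207 and 199.9 in AOA+Asp and 170.5, 166 and 174 in Mock. Neither gene's AOA libraries overlapped those of AOA+Asp, and the log2 fold changes were -1.04 (SE 0.0826, adjusted p = 1.88e-08) and -0.78 (SE 0.0686, adjusted p = 6.43e-08). Slc38a1 fell with a log2 fold change of -0.94 (adjusted p = 5.92e-05), the cationic carriers Slc7a1 and Slc7a3 with -0.61 (adjusted p = 4.74e-05) and -0.40 (adjusted p = 0.000104), and Slc1a4 with -0.63 (adjusted p = 1.94e-07). Slc1a5, the neutral amino acid and glutamine carrier, moved little with AOA alone (148, 151 and 144 CPM beside 141, 135 and 135 in Mock, log2 fold change 0.11, adjusted p = 0.185) and stood at 96.2, 108 and 99.3 CPM in AOA+Asp, below both groups (log2 fold change -0.54, adjusted p = 2.88e-06 against AOA, log2 fold change -0.43, adjusted p = 0.000393 against Mock).

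Both risers of the transporter list are known for stress-related uptake. Slc7a11, the cystine-glutamate exchanger, was at 24, 23.4 and 22.6 CPM in AOA and 47.4, 38.3 and 41.6 in AOA+Asp, and Mock held 39.1, 36.3 and 37.7. Slc38a2, an amino acid carrier that hypertonic medium also induces, was at 550.5, 510.1 and 481 CPM in AOA, 741, 700.0 and 768 in AOA+Asp and 619, 595 and 574 in Mock. The log2 fold changes with aspartate were 0.86 (SE 0.117, adjusted p = 1.04e-05) and 0.52 (SE 0.101, adjusted p = 0.000406), and neither gene's AOA libraries overlapped those of AOA+Asp.

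**Figure D3:**
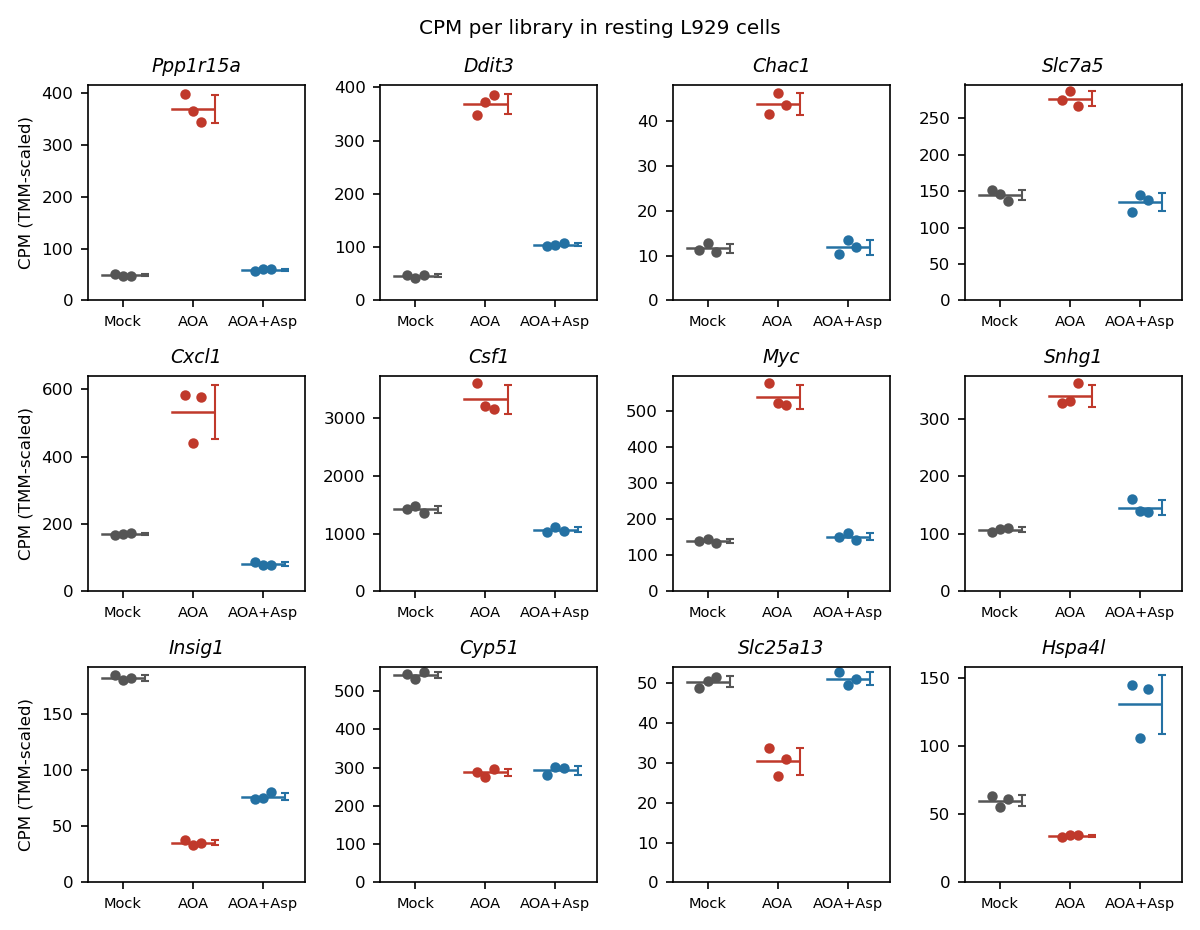
Each panel gives the CPM of 1 gene in every Mock, AOA and AOA+Asp library as points, with the mean of 3 as a line and the SD as a bar, on axes that start at 0. Ppp1r15a, Ddit3, Chac1, Slc7a5, Cxcl1, Csf1, Myc and Snhg1 were highest in AOA, Insig1 was highest in Mock with AOA+Asp between Mock and AOA, Slc25a13 was lowest in AOA, Cyp51 overlapped between AOA and AOA+Asp, and Hspa4l was highest in AOA+Asp.

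Genes of aspartate and asparagine metabolism moved in both directions. Of 16 tested members 8 fell and 3 rose with aspartate, 8 were higher and 3 lower in AOA than in Mock. Got1, a target of AOA, was at 177, 174 and 180.0 CPM in AOA, 112, 125 and 118 in AOA+Asp and 131, 125 and 129 in Mock, a log2 fold change of -0.58 (SE 0.0651, adjusted p = 1.17e-06). Got2 was at 445, 453 and 426 CPM in AOA and 324, 351 and 329 in AOA+Asp, and Asns, which makes asparagine from aspartate, at 546, 580.3 and 558 CPM in AOA and 417, 415 and 415 in AOA+Asp. All AOA libraries of these 3 genes exceeded all AOA+Asp libraries. The alanine aminotransferase Gpt2 fell with a log2 fold change of -0.44 (adjusted p = 1.9e-05), and Mdh2 and Slc25a11 of the malate-aspartate shuttle with -0.36 (adjusted p = 0.00126) and -0.59 (adjusted p = 0.000137). Both mitochondrial aspartate-glutamate carriers rose. Slc25a13 was at 33.6, 26.8 and 30.9 CPM in AOA, 52.9, 49.5 and 51 in AOA+Asp and 48.9, 50.6 and 51.6 in Mock (log2 fold change 0.75, SE 0.0787, adjusted p = 5.09e-07). Slc25a12 had a log2 fold change of 0.45 (adjusted p = 4.74e-05). Of the plasma membrane aspartate carriers listed, Slc1a1, Slc1a2, Slc1a3 and Slc1a6 were all under the filter, so no change of theirs was detectable at this depth.

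Genes of serine and glycine synthesis and of tRNA charging fell without an exception among those called. Of 15 tested genes of serine, glycine, proline and folate metabolism 10 fell and 0 rose (median -0.45), and of 20 cytosolic aminoacyl-tRNA synthetases 15 fell and 0 rose (median -0.30). In AOA against Mock the same lists had 12 and 16 members higher. Mthfd2, a mitochondrial folate enzyme, was at 355, 348 and 337 CPM in AOA, 228, 233 and 226 in AOA+Asp and 221, 211 and 202 in Mock. Cth, which makes cysteine from cystathionine, was at 163, 162 and 168 CPM in AOA and 96, 100.0 and 87.7 in AOA+Asp. Pycr1, the last enzyme of proline synthesis, was at 11.2, 10.2 and 13.1 CPM in AOA and 6.3, 6.9 and 6.4 in AOA+Asp. In all 3 genes the AOA libraries were above every AOA+Asp library, with log2 fold changes of -0.60 (SE 0.0556, adjusted p = 1.29e-07), -0.80 (SE 0.0714, adjusted p = 8.2e-08) and -0.81 (SE 0.126, adjusted p = 4.12e-05). Phgdh and Psph, the first and last enzymes of serine synthesis, fell with log2 fold changes of -0.54 (adjusted p = 0.000277) and -0.51 (adjusted p = 0.00339), whereas Psat1, the aminotransferase between them, had a log2 fold change of -0.12 (adjusted p = 0.0875) and was not called. Gars, the glycyl-tRNA synthetase, was at 828, 818 and 816 CPM in AOA, 528, 561 and 522 in AOA+Asp and 523, 515 and 503 in Mock (log2 fold change -0.61, SE 0.0556, adjusted p = 9.81e-08). The aspartyl-tRNA synthetase Dars was at 196, 186 and 212 CPM in AOA, 177, 180.2 and 158 in AOA+Asp and 139, 151 and 149 in Mock, so AOA+Asp lay between the others. Its log2 fold change was -0.21 (adjusted p = 0.0144) against AOA and 0.23 (adjusted p = 0.0405) against Mock. Eprs, Farsa, Farsb, Lars and Qars were not called.

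Transcripts of nucleotide synthesis, a pathway to which aspartate gives carbon and nitrogen, fell more often than they rose. Nucleotide levels are not measured by RNA. Of 21 tested pyrimidine genes 13 fell and 1, the deoxycytidine kinase Dck (log2 fold change 0.30, adjusted p = 0.00695), rose. Cad, whose product joins aspartate to carbamoyl phosphate, was at 522, 538 and 484 CPM in AOA, 356, 420.5 and 408 in AOA+Asp and 405, 405 and 368 in Mock. Umps, which completes uridine monophosphate, was at 468, 461 and 443 CPM in AOA and 289, 311 and 281 in AOA+Asp. Both sets of AOA libraries lay above the AOA+Asp libraries, with log2 fold changes of -0.38 (SE 0.0765, adjusted p = 0.000509) and -0.64 (SE 0.0626, adjusted p = 2.37e-07), and Dhodh between them in the pathway had a log2 fold change of -0.25 (adjusted p = 0.0336). Rrm2b, the ribonucleotide reductase subunit used outside S phase, was at 26, 24 and 22.8 CPM in AOA, 14.5, 10.9 and 11.7 in AOA+Asp and 12.4, 13.4 and 13.2 in Mock (log2 fold change -0.97, SE 0.164, adjusted p = 0.000102), and Dut, which removes dUTP, was at 61.1, 63.9 and 65.2 CPM in AOA, 37.6, 39.3 and 33.1 in AOA+Asp and 39, 41.8 and 40.4 in Mock (log2 fold change -0.79, SE 0.103, adjusted p = 6.8e-06). The S-phase genes Rrm1, Rrm2, Tyms and Tk1 were not called with aspartate, and Rrm2 and Tk1 were below Mock in AOA+Asp, with log2 fold changes of -0.39 (adjusted p = 0.00438) and -0.33 (adjusted p = 0.0179). Of 15 purine genes 6 fell and 2 rose (median -0.12, and -0.032 by library totals). Adsl, which releases fumarate after aspartate has given its nitrogen, was at 146, 150.2 and 142 CPM in AOA and 87.7, 97.1 and 86.5 in AOA+Asp (log2 fold change -0.69, SE 0.074, adjusted p = 6.54e-07). Paics, which joins aspartate to the purine precursor, rose with a log2 fold change of 0.21 (adjusted p = 0.021). The genes for the enzyme that joins aspartate to inosine monophosphate parted. Adss rose with a log2 fold change of 0.20 (adjusted p = 0.049) and Adssl1 fell with -0.41 (adjusted p = 0.000851).

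Chemokines, cytokines and NF-kB subunits gave the lowest median of all lists. Of 22 tested members 17 fell and 1 rose with aspartate, and the median log2 fold change was -1.19. Against Mock 18 were higher in AOA, and in AOA+Asp 0 were higher and 4 lower. Cxcl2, a neutrophil chemokine, was at 83.7, 57.7 and 71.8 CPM in AOA, 6.11, 5.72 and 6.53 in AOA+Asp and 10.6, 8.2 and 9.82 in Mock. Cxcl1, its neighbour in function, was at 583, 440.3 and 577 CPM in AOA, 86.9, 78.3 and 78.6 in AOA+Asp and 167, 169.5 and 173 in Mock. In both genes the 3 groups were apart, AOA highest and AOA+Asp lowest. The falls against AOA were 11.6-fold (log2 fold change -3.53, SE 0.126, adjusted p = 4.55e-13) and 6.57-fold (log2 fold change -2.71, SE 0.0943, adjusted p = 4.55e-13), and against Mock the log2 fold changes were -0.64 (adjusted p = 0.00692) and -1.07 (adjusted p = 3.48e-07).

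Csf1, the macrophage growth factor that L929 cells are known to secrete, was at 3607, 3208 and 3149 CPM in AOA, 1033, 1116 and 1049 in AOA+Asp and 1421, 1485 and 1355 in Mock. Lif, a cytokine of the interleukin-6 family, was at 29.1, 22.5 and 21.3 CPM in AOA, 6.39, 6.26 and 6.4 in AOA+Asp and 11.6, 11 and 12.6 in Mock. In these genes too every AOA+Asp library was below every Mock library, with log2 fold changes of -1.64 (SE 0.0726, adjusted p = 6.27e-12) and -1.94 (SE 0.128, adjusted p = 1.65e-09) against AOA and -0.41 (adjusted p = 0.00131) and -0.88 (adjusted p = 0.000341) against Mock. The monocyte chemokine Ccl2 was at 610.3, 591 and 698 CPM in AOA, 285, 252 and 220.2 in AOA+Asp and 221, 232 and 253 in Mock, so AOA+Asp overlapped Mock (log2 fold change -1.33, SE 0.0883, adjusted p = 1.8e-09 against AOA), and Ccl7 had a log2 fold change of -1.32 (adjusted p = 3.39e-09). Ccl20, rare in all groups, had 57 counts over the AOA libraries and 3 over AOA+Asp, a ratio of 20.8 after division by library depth (95% interval 6.78 to 104, counting error only). Relb, Nfkb2 and Nfkb1, subunits of NF-kB, fell with log2 fold changes of -1.76 (adjusted p = 1.52e-08), -1.19 (adjusted p = 4.27e-09) and -0.36 (adjusted p = 0.00059), and its inhibitors Nfkbie and Nfkbia with -0.96 (adjusted p = 4.4e-05) and -0.40 (adjusted p = 0.00153). Tnfaip3, which ends NF-kB signalling, rose with a log2 fold change of 0.72 (adjusted p = 0.00255). Il11, Birc3, Tnip1 and Ptgs2 were not called, and Cxcl5, Csf2, Bcl3 and Icam1 were under the filter.

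Myc and many genes for ribosome assembly fell as well. Myc, the growth transcription factor, was at 575, 521 and 516 CPM in AOA, 149.5, 161 and 143 in AOA+Asp and 139, 144 and 135 in Mock. The AOA libraries were far above the rest and AOA+Asp overlapped Mock, a log2 fold change of -1.83 (SE 0.0667, adjusted p = 4.55e-13) against AOA and 0.12 (adjusted p = 0.306) against Mock. Of 26 ribosome biogenesis genes 14 fell and 1 rose, and of 12 host transcripts of small nucleolar RNAs 9 fell and 2 rose. The median log2 fold changes were -0.25 and -0.57. Nop56, a core protein of the particles that methylate ribosomal RNA, was at 628, 586 and 601 CPM in AOA and 305, 306 and 280.4 in AOA+Asp (log2 fold change -1.02, SE 0.0582, adjusted p = 2.35e-10), a gene that itself contains small nucleolar RNAs. Snhg1 was at 327, 331 and 362 CPM in AOA, 160.4, 139 and 138 in AOA+Asp and 102, 108 and 111 in Mock, and no 2 groups overlapped. Snhg12 was at 87.6, 97.6 and 93.9 CPM in AOA and 39.3, 37.3 and 38 in AOA+Asp. The log2 fold changes were -1.22 (SE 0.107, adjusted p = 6.01e-08) and -1.28 (SE 0.0863, adjusted p = 1.99e-09), and those of Snhg15 and Snhg5 were -1.01 (adjusted p = 1.06e-06) and -0.87 (adjusted p = 1.42e-06). Snhg3 and Snhg4 rose, with log2 fold changes of 0.43 (adjusted p = 0.0152) and 0.34 (adjusted p = 0.00392), and Gas5 was not called (log2 fold change -0.11, adjusted p = 0.351). In AOA+Asp 4 of these hosts were above Mock, beside 2.52% of all genes: Snhg1 with a log2 fold change of 0.44 (adjusted p = 0.0168), Snhg5 with 0.50 (adjusted p = 0.00527), Snhg4 with 0.38 (adjusted p = 0.013) and Gas5 with 0.37 (adjusted p = 0.0286). Snhg4 was not called in AOA against Mock (log2 fold change 0.037, adjusted p = 0.768). Npm1, the nucleolar chaperone, rose with aspartate (log2 fold change 0.22, adjusted p = 0.0406) and stood above Mock (log2 fold change 0.51, adjusted p = 0.00121).

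Sterol genes were the group in which AOA+Asp remained farthest from Mock. With aspartate 11 of 22 tested genes of sterol synthesis and uptake rose and 6 fell (median 0.25, and 0.13 after correction for GC content and length). Against Mock 19 were lower in AOA (median -0.89) and 20 lower in AOA+Asp (median -0.79), where the share of all genes lower than Mock was 3.95%. Without AOA replicate 2 the sterol genes called with aspartate were 8 higher and 3 lower. Insig1, which holds the sterol sensor in the endoplasmic reticulum, was at 184, 179.6 and 182 CPM in Mock, 37.8, 33.3 and 35 in AOA and 74.1, 74.8 and 80.0 in AOA+Asp. Hmgcs1, at the entry of the mevalonate pathway, was at 86.6, 85.2 and 87.7 CPM in Mock, 24, 21.5 and 18.8 in AOA and 49.6, 42.4 and 52.4 in AOA+Asp. In both the AOA+Asp libraries were above AOA and below Mock with no overlap. The log2 fold changes with aspartate were 1.11 (SE 0.0738, adjusted p = 1.8e-09) and 1.17 (SE 0.12, adjusted p = 4.15e-07), and those of AOA+Asp against Mock were -1.25 (adjusted p = 2.22e-09) and -0.84 (adjusted p = 0.000113).

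**Figure D4:**
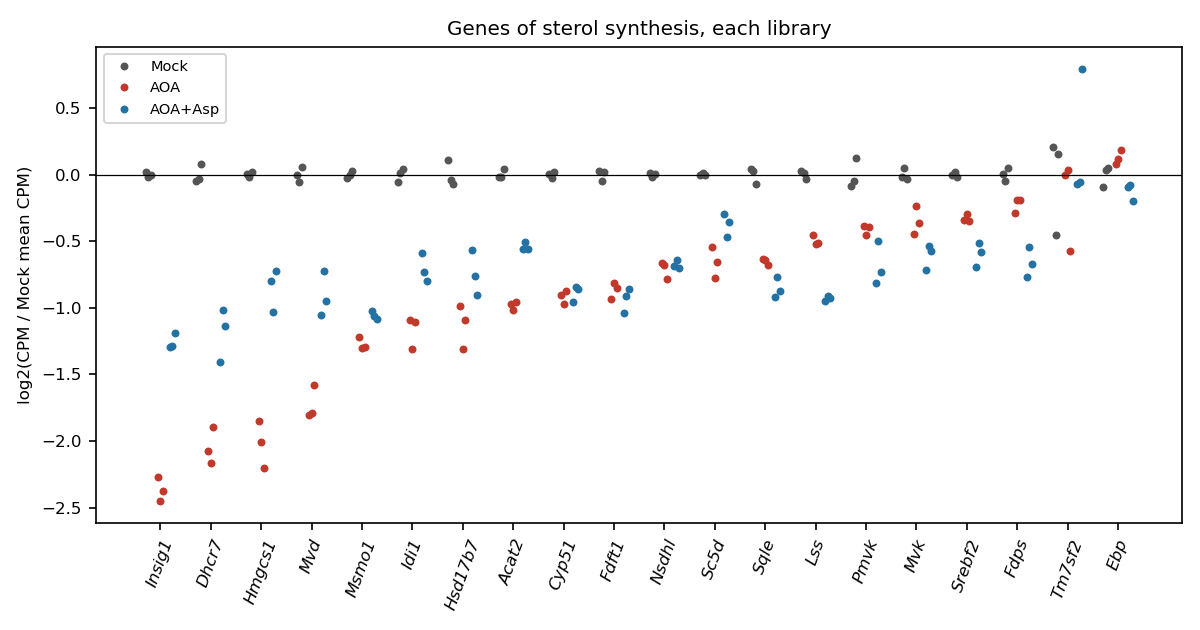
The level of each of 20 tested sterol genes in every Mock, AOA and AOA+Asp library is drawn as log2 of its CPM over the mean of the 3 Mock libraries, so 0 is the Mock mean. Insig1 lies far below 0 in AOA and part of the way up in AOA+Asp, whereas Cyp51 overlaps between both and Lss lies lower in AOA+Asp than in AOA.

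Members of the same pathway differed from each other. Cyp51, the lanosterol demethylase, was at 544, 532 and 548 CPM in Mock, 289.5, 276 and 296 in AOA and 279, 302 and 298 in AOA+Asp, and the log2 fold change with aspartate was 0.029 (adjusted p = 0.704) with a 95% interval of -0.092 to 0.15, beside -0.89 (adjusted p = 1.12e-08) against Mock. Lss, which closes the sterol ring, was at 140.0, 139 and 134 CPM in Mock, 101, 95.8 and 96.4 in AOA and 71.3, 73.1 and 72.3 in AOA+Asp, so that aspartate took it farther down (log2 fold change -0.43, SE 0.0529, adjusted p = 3.04e-06). Those that rose span the pathway, among them Mvd (log2 fold change 0.82, adjusted p = 4.38e-05), Idi1 (log2 fold change 0.46, adjusted p = 0.000961), Dhcr7 (log2 fold change 0.87, adjusted p = 4.04e-06), Sc5d (log2 fold change 0.29, adjusted p = 0.0102) and Msmo1 (log2 fold change 0.22, adjusted p = 0.0201). Those that fell were Pmvk, Fdps, Sqle, Lss, Ebp and Srebf2, the last, which encodes the pathway's main transcription factor, with a log2 fold change of -0.27 (adjusted p = 0.0056). Fdps was not called in AOA against Mock (log2 fold change -0.22, adjusted p = 0.0767) and was below Mock in AOA+Asp (log2 fold change -0.66, adjusted p = 0.000383). Of the 22 tested genes, Tm7sf2 and Ebp were the only ones not called between AOA+Asp and Mock, and Stard4 was under the filter.

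Lipid genes that answer to the sterol receptor LXR and to SREBP1 also rose in part. Of 14 tested 6 rose and 2 fell, and in AOA+Asp 8 were below Mock. Abcg1, which exports cholesterol, was at 0.828, 0.816 and 0.872 CPM in AOA, 7.7, 7.05 and 9.81 in AOA+Asp and 7.02, 5.68 and 7.74 in Mock, a 9.74-fold rise (log2 fold change 3.28, SE 0.218, adjusted p = 1.74e-09). Scd2, a stearoyl-CoA desaturase, was at 312, 301 and 305 CPM in AOA, 583, 576 and 650.0 in AOA+Asp and 1492, 1429 and 1364 in Mock. Elovl6, a fatty acid elongase, was at 31.1, 30.4 and 29.6 CPM in AOA, 67.2, 56.1 and 65.1 in AOA+Asp and 100.2, 96.7 and 93.5 in Mock. Abcg1 libraries of AOA+Asp overlapped Mock, while those of Scd2 and Elovl6 lay between AOA and Mock (log2 fold change 0.98, SE 0.0905, adjusted p = 1.21e-07 and log2 fold change 1.05, SE 0.141, adjusted p = 9.65e-06 against AOA, log2 fold change -1.24, adjusted p = 3.97e-08 and log2 fold change -0.62, adjusted p = 0.00847 against Mock). Fasn, Acly and Scd1 were not called with aspartate, at log2 fold changes of 0.056 (adjusted p = 0.614), -0.029 (adjusted p = 0.718) and -0.071 (adjusted p = 0.528), and all 3 were below Mock in AOA+Asp.

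Growth factor signalling genes were another group with most members below Mock in AOA+Asp. Of 15 feedback genes of the ERK pathway 8 fell and 4 rose with aspartate, 8 were below Mock in AOA and 12 in AOA+Asp, beside 3.95% of all genes (median -0.47). Dusp6, the phosphatase that acts on ERK, was at 58.5, 61.5 and 58.4 CPM in Mock, 46, 36.8 and 37.2 in AOA and 30.1, 33.5 and 31.1 in AOA+Asp, each group below the one before. Phlda1 was at 25.6, 25.7 and 26 CPM in Mock, 25.1, 22.9 and 24.8 in AOA and 13.2, 15 and 14.3 in AOA+Asp, with AOA just below Mock (log2 fold change -0.086, adjusted p = 0.427) and AOA+Asp far below both. Dusp5 was at 19.3, 19.6 and 20.2 CPM in Mock, 40.0, 31.9 and 33.3 in AOA and 8.26, 14.3 and 10.4 in AOA+Asp, raised by AOA and then lowered below Mock. The log2 fold changes with aspartate were -0.34 (SE 0.0875, adjusted p = 0.0037), -0.78 (SE 0.0872, adjusted p = 1.15e-06) and -1.67 (SE 0.134, adjusted p = 1.9e-08), and those against Mock -0.91 (adjusted p = 1.71e-06), -0.86 (adjusted p = 3.42e-06) and -0.84 (adjusted p = 0.00071). Etv1 went the other way, at 42, 36.5 and 42.8 CPM in Mock, 13.9, 12.9 and 14.4 in AOA and 35, 31.3 and 32.8 in AOA+Asp (log2 fold change 1.27, SE 0.127, adjusted p = 2.91e-07).

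Immediate early genes divided in a similar manner, with 11 of 24 lower and 3 higher with aspartate, and 9 below Mock in AOA+Asp. Egr1 was at 7.74, 9.46 and 8.02 CPM in Mock, 1.71, 1.07 and 0.756 in AOA and 1.35, 2.06 and 1.43 in AOA+Asp. Aspartate had no detectable effect on it (log2 fold change 0.44, adjusted p = 0.171, 95% interval -0.098 to 0.97), and both AOA groups were below every Mock library (log2 fold change -2.38, adjusted p = 3.63e-07 for AOA+Asp). Egr3 and Ier2 were below Mock with log2 fold changes of -1.34 (adjusted p = 0.0112) and -0.93 (adjusted p = 0.00183). The AP-1 genes Jun, Junb and Fosl1 fell with aspartate, with log2 fold changes of -0.59 (adjusted p = 7.68e-06), -0.41 (adjusted p = 0.00562) and -0.64 (adjusted p = 7.61e-06), as did Btg2 (log2 fold change -1.01, adjusted p = 2.79e-05). Fosb, also an AP-1 gene, rose with a log2 fold change of 0.84 (adjusted p = 0.03995), at means of 0.5001 CPM in AOA and 0.908 in AOA+Asp. Zfp36, whose product destabilizes cytokine mRNA, rose with a log2 fold change of 0.80 (adjusted p = 0.000133).

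Many genes of cell division rose. Of 30 replication and G1/S genes 13 rose and 2 fell (median 0.17), and of 20 G2/M genes 12 rose and 1 fell (median 0.29). In AOA against Mock 17 and 11 members were lower. Ccne2, the cyclin that drives entry into S phase, was at 20.0, 22 and 24.9 CPM in AOA, 45.7, 45.1 and 38.2 in AOA+Asp and 41.6, 44.6 and 47.5 in Mock. Pcna, the sliding clamp of the replication fork, was at 151, 149.9 and 174 CPM in AOA, 259, 268 and 252 in AOA+Asp and 241, 250.5 and 252 in Mock. Ttk, a kinase of the spindle checkpoint, was at 15, 14.5 and 15.3 CPM in AOA, 40.2, 34.2 and 35.3 in AOA+Asp and 32, 35.1 and 32.6 in Mock. In all 3 AOA+Asp lay above AOA without overlap, and it overlapped Mock in Ccne2 and Ttk and lay at or above the top of Mock in Pcna, with log2 fold changes of 0.95 (SE 0.0922, adjusted p = 2.19e-07), 0.71 (SE 0.0865, adjusted p = 2.83e-06) and 1.29 (SE 0.128, adjusted p = 2.77e-07). Mki67 was at 201, 212 and 210.2 CPM in AOA and 437, 358 and 407 in AOA+Asp (log2 fold change 0.95, SE 0.139, adjusted p = 2.49e-05), and Cenpf, Cenpe and Kif11 rose with log2 fold changes of 0.98 (adjusted p = 0.000123), 0.76 (adjusted p = 0.000608) and 0.74 (adjusted p = 0.000845). The mitotic genes Cdk1, Ccna2, Ccnb2, Cdc20, Ube2c, Aurka and Tpx2 were not called, and Birc5 fell with a log2 fold change of -0.17 (adjusted p = 0.0365). Ccnd1, the G1 cyclin, was at 627, 648 and 631 CPM in AOA, 468, 538 and 452 in AOA+Asp and 606, 624 and 604 in Mock, a fall with aspartate (log2 fold change -0.39, SE 0.0727, adjusted p = 0.000285) to below Mock (log2 fold change -0.33, adjusted p = 0.00888).

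Targets of p53 were mixed: 9 of 17 fell and 4 rose. Plk2 was at 45.5, 31.2 and 35.4 CPM in AOA, 10.1, 10.2 and 9.9 in AOA+Asp and 17.9, 19.5 and 15.8 in Mock (log2 fold change -1.89, SE 0.138, adjusted p = 5.91e-09), and the death genes Fas and Bbc3 fell with log2 fold changes of -1.61 (adjusted p = 0.00106) and -1.19 (adjusted p = 0.000146). Cdkn1a, the cell cycle inhibitor p21, was at 57.7, 57.1 and 60.0 CPM in AOA, 47.7, 51.7 and 52.1 in AOA+Asp and 73.7, 73.3 and 80.3 in Mock, lowest with aspartate (log2 fold change -0.21, adjusted p = 0.0364). Trp53inp1 and Sesn1 rose, with log2 fold changes of 0.86 (adjusted p = 0.00203) and 0.71 (adjusted p = 0.00254). In AOA+Asp 8 of the list were below Mock and 0 above, beside 3.95% and 2.52% of all genes.

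Most osmolyte genes and some chaperones rose, a few of them past Mock. Of 13 tested genes of osmolyte transport and of its transcription factor NFAT5 9 rose and 2 fell (median 0.52), and 2 stood above Mock. Hspa4l, a heat shock protein that hyperosmotic medium induces, was at 63.4, 55.5 and 61.1 CPM in Mock, 33.2, 34.6 and 34.6 in AOA and 145, 106 and 142 in AOA+Asp. Slc5a3, the myo-inositol transporter, was at 199, 185 and 173 CPM in Mock, 125, 116 and 117 in AOA and 239, 177 and 241 in AOA+Asp. Nfat5 itself was at 144, 146 and 128 CPM in Mock, 99.2, 83 and 74.9 in AOA and 166, 134 and 167 in AOA+Asp. AOA+Asp was above AOA without overlap in all 3 and above Mock without overlap in Hspa4l alone of them, with log2 fold changes of 1.94 (SE 0.162, adjusted p = 3.45e-08), 0.88 (SE 0.163, adjusted p = 0.000264) and 0.86 (SE 0.187, adjusted p = 0.00116) against AOA. AOA+Asp replicate 2 was the lowest of its group in each of these genes. Against Mock Hspa4l had a log2 fold change of 1.13 (SE 0.156, adjusted p = 0.000152), and the aldose reductase Akr1b1, not called with aspartate (log2 fold change 0.061, adjusted p = 0.563), one of 0.35 (adjusted p = 0.0148). Hspa1b, the inducible 70-kilodalton heat shock protein, was at 1.97, 1.46 and 2.04 CPM in AOA, 10.8, 10.5 and 14.1 in AOA+Asp and 9.82, 8.29 and 10.2 in Mock (log2 fold change 2.71, SE 0.203, adjusted p = 8.3e-09). Its reads may be shared with its near-identical copy Hspa1a, which had 3 counts over the AOA libraries and 38 over AOA+Asp (depth-scaled ratio 11.6, 95% interval 3.66 to 58.5). No group received another solute at 20 mM, so an effect of added solute and an effect of aspartate cannot be told apart.

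Chaperones and degradation genes of the endoplasmic reticulum rose in 8 of 20 and fell in 1, and with the correction for GC content and length 15 rose. In AOA+Asp 9 were above Mock and 0 below, beside 2.52% of all genes above. Dnajc3, the inhibitor of the kinase PERK, was at 124, 118 and 131 CPM in Mock, 84.2, 79.5 and 89.1 in AOA and 182, 163 and 179 in AOA+Asp. Hsp90b1 was at 3156, 3178 and 3273 CPM in Mock, 2980, 2967 and 3201 in AOA and 4615, 3961 and 4264 in AOA+Asp. In both the AOA+Asp libraries were above all others, with log2 fold changes of 1.05 (SE 0.0886, adjusted p = 3.65e-08) and 0.49 (SE 0.098, adjusted p = 0.00052) against AOA. Syvn1, Herpud1, Edem1 and Dnajb9 rose with log2 fold changes of 0.93 (adjusted p = 2.98e-07), 0.49 (adjusted p = 0.000933), 0.44 (adjusted p = 0.000322) and 0.38 (adjusted p = 0.000429). Hspa5, the main chaperone of this compartment, was at 4052, 4027 and 4026 CPM in Mock, 5508, 5403 and 5495 in AOA and 5545, 5407 and 5760 in AOA+Asp. Both AOA groups lay above every Mock library, and the log2 fold change with aspartate was 0.027 (adjusted p = 0.763) with a 95% interval of -0.11 to 0.16, beside 0.47 (adjusted p = 0.000174) against Mock. Atf6, a sensor of misfolded protein, fell with a log2 fold change of -0.31 (adjusted p = 0.015).

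Glycolytic genes and targets of the hypoxia factor HIF took both directions, 8 of 26 higher and 14 lower. Vegfa was at 208, 196 and 179 CPM in AOA, 119, 115 and 121 in AOA+Asp and 118, 127 and 123 in Mock (log2 fold change -0.71, SE 0.0647, adjusted p = 9.88e-08), and Hk2, Pdk1, Eno1 and Ldha fell with log2 fold changes of -0.63 (adjusted p = 1.23e-05), -0.61 (adjusted p = 5.23e-05), -0.44 (adjusted p = 0.000633) and -0.32 (adjusted p = 0.00726). Egln3, a prolyl hydroxylase that HIF induces, was at 74.5, 88.9 and 85.1 CPM in AOA, 137, 182 and 163 in AOA+Asp and 253, 271 and 292 in Mock (log2 fold change 0.95, SE 0.0952, adjusted p = 2.89e-07), the 1 member that differed from Mock in AOA+Asp (log2 fold change -0.76, adjusted p = 4.19e-05). Bnip3 and Kdm3a rose with log2 fold changes of 0.98 (adjusted p = 0.000113) and 0.87 (adjusted p = 8.55e-06). Of 18 NRF2 antioxidant genes 7 rose and 5 fell. Pgd, of the pentose phosphate pathway, was at 162, 171 and 158 CPM in AOA, 302, 339.6 and 310.0 in AOA+Asp and 337, 333 and 349 in Mock (log2 fold change 0.95, SE 0.0829, adjusted p = 5.53e-08), while Tkt and Hmox1 fell with log2 fold changes of -0.42 (adjusted p = 0.000695) and -0.30 (adjusted p = 0.00564). Lysosomal genes were as mixed, 7 of 24 higher and 8 lower, with the autophagy receptor Sqstm1 at 1357, 1343 and 1315 CPM in AOA, 835, 921 and 891 in AOA+Asp and 829, 774 and 830.0 in Mock (log2 fold change -0.60, SE 0.0675, adjusted p = 1.17e-06).

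Extracellular matrix genes fell in 8 and rose in 2 of 14 tested, and 11 of 25 listed were under the filter. Fibronectin (Fn1) was at 67.2, 60.2 and 54.7 CPM in AOA, 29.9, 30.6 and 30.5 in AOA+Asp and 33.9, 31.4 and 32.1 in Mock. Tgfb1 was at 68.2, 58.6 and 62 CPM in AOA, 37.4, 47 and 40.2 in AOA+Asp and 67.2, 63.9 and 64.9 in Mock. AOA was highest in Fn1 (log2 fold change -1.0, SE 0.0834, adjusted p = 3.24e-08), whereas Tgfb1 was below Mock only with aspartate (log2 fold change -0.60, adjusted p = 6.31e-05 against AOA, log2 fold change -0.65, adjusted p = 0.000304 against Mock). The collagen chains parted, with Col1a2 at 79, 81.1 and 80.2 CPM in AOA, 123, 121 and 131 in AOA+Asp and 141, 143 and 139.8 in Mock (log2 fold change 0.64, SE 0.0581, adjusted p = 9.25e-08), and Col1a1 not called (log2 fold change -0.082, adjusted p = 0.383). The fibroblast marker list as a whole had 3 members higher and 3 lower, with a median of -0.038 that turned to 0.041 after correction for GC content and length and to 0.048 by library totals. Cd68, the 1 immune marker tested, was not called, at a log2 fold change of -0.13 (adjusted p = 0.13).

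Mitochondrial DNA maintenance genes fell in 13 and rose in 4 of 25. Lonp1, a matrix protease, was at 984, 994 and 956 CPM in AOA, 608, 704 and 677 in AOA+Asp and 649.8, 622 and 644 in Mock (log2 fold change -0.56, SE 0.0702, adjusted p = 4.04e-06). The nuclease gene Endog and the glycosylases Neil1, Nthl1 and Mutyh fell with log2 fold changes of -1.02 (adjusted p = 9.28e-05), -0.80 (adjusted p = 0.000435), -0.53 (adjusted p = 0.00109) and -0.49 (adjusted p = 0.0164), and Tfam, which packs mitochondrial DNA, with -0.34 (adjusted p = 0.00048). Polrmt, the mitochondrial RNA polymerase, and Top3a rose, with log2 fold changes of 0.44 (adjusted p = 0.00064) and 0.59 (adjusted p = 0.000159). Beside the 23.4% and 22.8% of all genes, the mRNAs encoded in the mitochondrion gave 3 higher and 1 lower of 13, with a median of 0.0088 that became -0.11 after correction for GC content and length. mt-Nd1 was at 2749, 2305 and 2528 CPM in AOA, 4597, 4416 and 4258 in AOA+Asp and 4303, 4140 and 4268 in Mock (log2 fold change 0.81, SE 0.0704, adjusted p = 5.8e-08), and mt-Nd2 rose with a log2 fold change of 0.63 (adjusted p = 4.64e-07). mt-Co1 was at 13110, 12240 and 12830 CPM in AOA, 13190, 12780 and 12370 in AOA+Asp and 9969, 9269 and 9784 in Mock, with AOA+Asp above Mock (log2 fold change 0.40, adjusted p = 0.00118) and no effect of aspartate called (log2 fold change 0.006, adjusted p = 0.953). Mitochondrially encoded genes took 3.35% to 3.57% of the counts in AOA+Asp, 2.79% to 3.05% in AOA and 2.79% to 3.04% in Mock.

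The sensors and transducers of cytosolic DNA were in part higher with aspartate, 7 of 18 tested, with 3 lower, and without AOA replicate 3 the counts were 6 and 0. Tbk1, the kinase that acts on IRF3, was at 37, 35.1 and 33.2 CPM in AOA, 69.5, 60.8 and 67.4 in AOA+Asp and 59.5, 60.5 and 58.5 in Mock. Sting1 was at 5.69, 5.54 and 5.87 CPM in AOA, 7.28, 7.54 and 8.09 in AOA+Asp and 11.8, 10.0 and 11.3 in Mock. The log2 fold changes of Tbk1 and Sting1 against AOA were 0.91 (SE 0.104, adjusted p = 1.47e-06) and 0.42 (SE 0.111, adjusted p = 0.00452). Against Mock Tbk1 was not called (log2 fold change 0.15, adjusted p = 0.436), although its AOA+Asp libraries lay just above the Mock libraries. Sting1 stayed below every Mock library (log2 fold change -0.53, adjusted p = 0.00446). Socs3, a brake on cytokine receptors, was at 16.9, 15.3 and 14.3 CPM in AOA, 17.8, 21.2 and 19.6 in AOA+Asp and 44.8, 47.5 and 46.4 in Mock (log2 fold change 0.33, adjusted p = 0.00647 against AOA, log2 fold change -1.24, adjusted p = 2.57e-08 against Mock). The sensor gene Cgas was not called (log2 fold change 0.091, adjusted p = 0.631), Irf3 fell with a log2 fold change of -0.28 (adjusted p = 0.0158), and Ifnb1 was under the filter.

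Interferon-stimulated genes in the cells without HT-DNA fell in 23 and rose in 5 of 49 tested (median -0.39), and AOA against Mock gave 9 higher and 11 lower. Part of these genes passed the filter on low counts only through libraries of other groups. With only the AOA and AOA+Asp libraries 36 passed, of which 20 fell and 6 rose (median -0.35), and with 10 counts in every library 34 passed, of which 19 fell and 5 rose (median -0.35). Ifi203 was at 192, 175 and 209.6 CPM in AOA, 74.6, 69.8 and 67.4 in AOA+Asp and 86.7, 81.1 and 94.7 in Mock (log2 fold change -1.45, SE 0.126, adjusted p = 6.09e-08), and its reads may be shared with the overlapping Mndal. Isg15, Usp18, Oasl1 and Xaf1 fell with log2 fold changes of -0.89 (adjusted p = 0.0192), -1.24 (adjusted p = 0.00172), -1.22 (adjusted p = 3.39e-06) and -1.12 (adjusted p = 4.74e-05). Cxcl10 had 24 counts over the AOA libraries and 2 over AOA+Asp (depth-scaled ratio 13.2, 95% interval 3.27 to 115), and Ifit3b had 10 and 0. With 3 counts put in place of the 0, the depth-scaled ratio of Ifit3b was 3.66, a value without an interval for counting error. The 5 that rose were Ifit2, Stat2, Irf1, Eif2ak2 and Irgm1. Ifit2 was at 6.73, 7.0 and 7.5 CPM in AOA, 16.9, 15.7 and 15.8 in AOA+Asp and 16.2, 18.8 and 17.8 in Mock. Irf1, a transcription factor of the interferon response, was at 8.8, 7.99 and 7.04 CPM in AOA, 13.6, 12.7 and 14.6 in AOA+Asp and 13, 13.1 and 13.1 in Mock. Both were lowest in AOA, with no overlap with AOA+Asp (log2 fold change 1.19, SE 0.205, adjusted p = 0.000124 and log2 fold change 0.78, SE 0.0986, adjusted p = 4.69e-06).

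The same addition in cells given HT-DNA moved a like number of genes, 3386 higher (23.7%) and 3413 lower (23.9%) in HT-DNA+AOA+Asp than in HT-DNA+AOA. Whether the aspartate effect differed between the 2 settings was tested by the interaction in the fit of all libraries, which shares no library between its 2 effects. It was called in 149 genes: 38 with a higher effect under HT-DNA (0.266%) and 111 with a lower one (0.778%). Of 49 interferon-stimulated genes 20 had a lower effect and 0 a higher one, with medians of -0.39 without HT-DNA and -1.55 with it. Only 36 of these genes passed the filter with the AOA and AOA+Asp libraries alone, the rest only through libraries of other groups. The medians and counts of this list are thus in part shaped by that filter. The number of genes called was 69 without AOA replicate 2 and 418 and 370 without HT-DNA+AOA replicates 3 and 1, the widest pair of replicates.

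**Figure D5:**
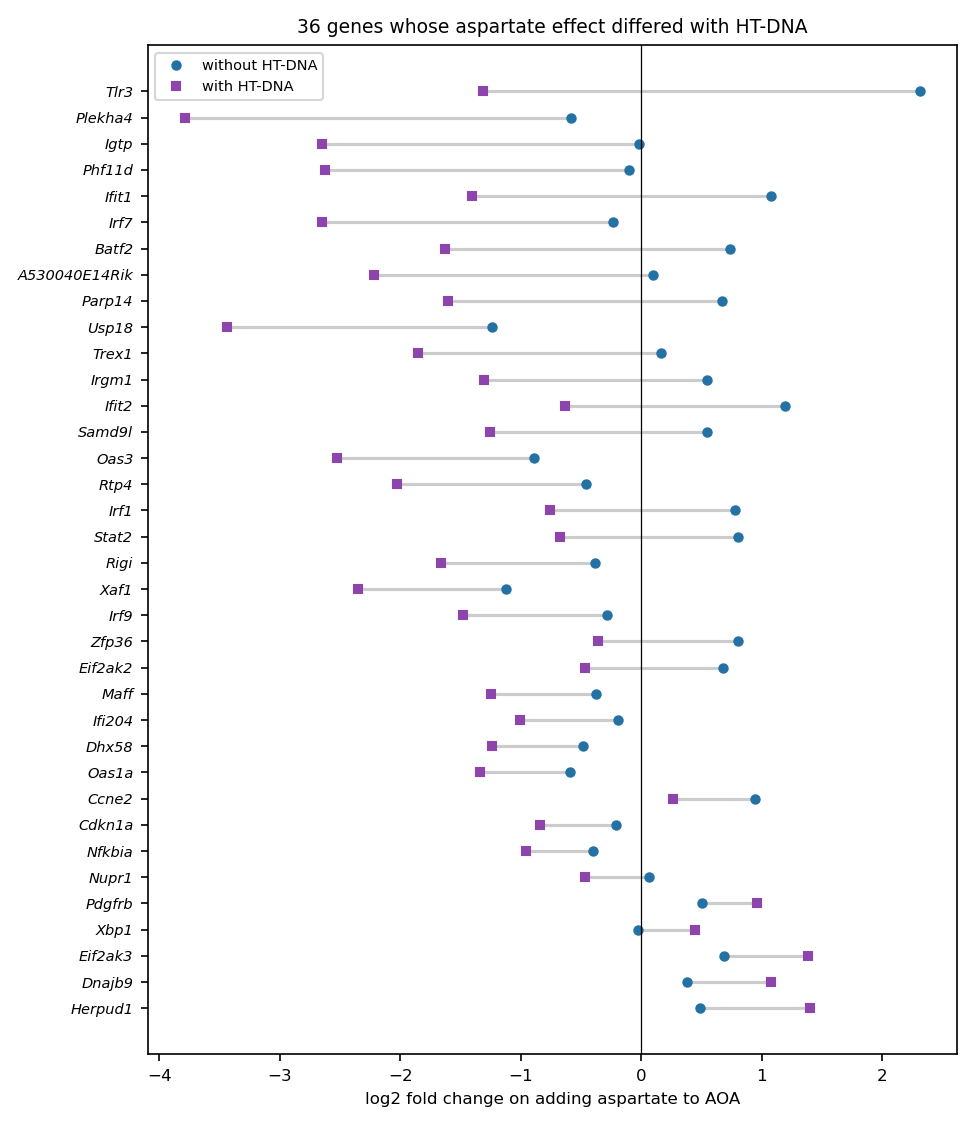
For 36 genes in which the aspartate effect differed, the log2 fold change without HT-DNA (AOA+Asp against AOA) and with HT-DNA (HT-DNA+AOA+Asp against HT-DNA+AOA) are drawn as 2 points joined by a line. Most lines run to lower values with HT-DNA, and 5 genes, Pdgfrb, Xbp1, Eif2ak3, Dnajb9 and Herpud1, run to higher values.

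Tlr3, a receptor of double-stranded RNA, had the largest difference among the genes that reached a mean of 1 CPM in a group. Its level was 0.207, 0.129 and 0.116 CPM in AOA and 0.513, 0.832 and 0.969 in AOA+Asp, and 1.62, 1.13 and 1.19 in HT-DNA+AOA and 0.339, 0.481 and 0.757 in HT-DNA+AOA+Asp. Aspartate raised it without HT-DNA and lowered it with HT-DNA, with no overlap in either setting. Irf7, the amplifier of interferon production, was at 2.43, 2.71 and 3.2 CPM in AOA and 2.01, 2.98 and 2.11 in AOA+Asp, and at 26, 19.6 and 27.3 in HT-DNA+AOA and 3.97, 3.9 and 3.74 in HT-DNA+AOA+Asp. Its levels without HT-DNA overlapped, while with HT-DNA they were far apart. Outside the interferon genes, the endoplasmic reticulum genes Herpud1 and Dnajb9 rose by 0.49 and 0.38 on the log2 scale without and 1.41 and 1.08 with HT-DNA. A gene not called in the interaction is not shown to have had equal effects in both settings.

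Outside the lists, the largest changes were taken among called genes whose groups did not overlap and whose higher group averaged at least 1 CPM, a choice that lets in genes near 0 in the other group. Slco4a1, an organic anion transporter, was at 0.259, 0.515 and 0.407 CPM in AOA, 5.97, 5.58 and 8.59 in AOA+Asp and 5.16, 4.82 and 6.12 in Mock, a 16.6-fold rise (log2 fold change 4.05, SE 0.264, adjusted p = 1.33e-09). Gper1, a membrane receptor for oestrogen, was at 1.66, 1.5 and 2.56 CPM in AOA, 9.1, 10.0 and 11.6 in AOA+Asp and 6.69, 7.07 and 7.4 in Mock, and ended above Mock (log2 fold change 2.45, SE 0.175, adjusted p = 4.62e-09 against AOA, and log2 fold change 0.54, adjusted p = 0.0343 against Mock). Cd300lb, an immunoreceptor, was at 0.673, 0.258 and 0.523 CPM in AOA and 3.78, 3.03 and 4.55 in AOA+Asp, and Ndrg4 was at 0.88, 1.46 and 0.989 CPM in AOA and 6.39, 5.33 and 6.07 in AOA+Asp. The other large rises outside the lists were Fhdc1 (log2 fold change 2.79, adjusted p = 7.05e-05), Angpt2 (log2 fold change 2.50, adjusted p = 6.74e-05), Tmem132a (log2 fold change 2.41, adjusted p = 3.63e-05) and the gene models Gm44502 (log2 fold change 3.01, adjusted p = 0.0411), Gm47694 (log2 fold change 2.74, adjusted p = 1.35e-06) and Gm20521 (log2 fold change 2.54, adjusted p = 0.00255), which overlap other genes. The call of Gm44502 was lost without AOA replicate 1 or 2.

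Among the falls, Sspo, which encodes the large secreted protein SCO-spondin, was at 2.74, 3.22 and 2.85 CPM in AOA, 0.14, 0.196 and 0.126 in AOA+Asp and 0.169, 0.0901 and 0.237 in Mock, an 18.6-fold fall (log2 fold change -4.22, SE 0.368, adjusted p = 5.83e-08). Gfra1, a co-receptor for the growth factor GDNF, was at 1.6, 1.03 and 1.69 CPM in AOA, 0.0466, 0.147 and 0.0421 in AOA+Asp and 0.127, 0.0901 and 0 in Mock. Mamdc2 was at 9.16, 7.3 and 8.43 CPM in AOA, 0.84, 0.979 and 1.01 in AOA+Asp and 0.846, 1.35 and 1.57 in Mock (log2 fold change -3.12, SE 0.201, adjusted p = 1.13e-09). These genes were close to 0 in Mock, were raised by AOA and stood near the Mock level with aspartate. Acox2, Hhipl1 and Nat8 fell with log2 fold changes of -3.39 (adjusted p = 0.00103), -3.21 (adjusted p = 1.99e-07) and -3.14 (adjusted p = 4.72e-05). Gm37206 had 88 counts over the AOA libraries and 0 over AOA+Asp, a depth-scaled ratio of 32.2 with 3 counts put in place of the 0. It was at 2.92, 0.856 and 0.522 CPM in Mock and at 0, 0 and 0 in HT-DNA+AOA, so libraries with no aspartate also held none. Gm17173 had 75 and 2, a depth-scaled ratio of 41.1 (95% interval 11.0 to 346). Gm28373 and Gm15850 fell with log2 fold changes of -3.44 (adjusted p = 2.74e-05) and -2.90 (adjusted p = 7.5e-06).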

How the data were processed

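RNA of L929 cultures, extracted with TRIzol, was sequenced in 18 libraries, 6 groups of 3. The authors deposited 1 table of estimated counts for 57180 genes, in which 11.56% of the values were not whole, with the authors' group means, which were not used. The aligner, counter, genome build and strand setting are not given in the sources used here. Values were rounded to whole counts, so a test planned for counts was run on estimated counts. The libraries held 17901605 to 24057343 counts. Groups came from the sample labels.

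Genes passing filterByExpr (minimum count 10, minimum total 15) were fitted over all 18 libraries by edgeR's quasi-likelihood test (edgeR 4.0.16, TMM scaling, R 4.3.3) with Benjamini-Hochberg adjustment over the 14263 genes tested, and a gene was called at an adjusted p under 0.05. Fitting all groups gave 1 estimate of the spread. CPM values used TMM-scaled library sizes. DESeq2 1.42.0, other scalings, filters, subsets of libraries, a replicate block and removal of each library's trend with GC content and transcript length (GENCODE vM21, 51884 of 57180 genes matched) were alternatives. Whether replicate numbers pair the cultures is not stated in the labels, and the main fit used no block. The deviations of same-numbered AOA and AOA+Asp libraries correlated at -0.0423 to 0.0164, so no shared replicate effect was visible. Intervals for ratios of low counts were exact binomial (95%) and cover counting error only.

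The comparison and the 31 gene lists (602 distinct genes, 545 tested) were chosen with earlier results of these data known, so no list is independent support for its direction and no list was tested as a set. Any listed gene could be named, and of each list up to 4 called members with the largest change and no overlap between groups were put first. Outside the lists, the 12 largest rises and 12 largest falls were named among called genes whose groups did not overlap and whose higher group averaged 1 CPM or more, and likewise the 8 largest interactions. Promoter sequences were from RefSeq, and overlapping genes from GENCODE vM21. Single values of some listed genes are not reported here.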

Additional observations from a re-analysis of the deposited data

Results flagged for a closer look

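The aspartate effect with HT-DNA (HT-DNA+AOA+Asp against HT-DNA+AOA) differed from the effect without it (AOA+Asp against AOA) in 36 genes named here by the interaction test of edgeR, 31 of them with a lower effect under HT-DNA and 5 with a higher one. Values below are the log2 effect with HT-DNA minus the log2 effect without. Of the 36 genes, 21 were called in all 12 fits that left out 1 library, 34 of 34 with an adjusted p were called by DESeq2, and 24 were called when only the 4 groups were fitted. Tlr3 and Plekha4, which had the largest differences of the 36, got no adjusted p from DESeq2. Of the 15 not called in all 12 fits, Oas1a was called in 2, Eif2ak2, Dhx58 and Nfkbia in 3, Maff and Pdgfrb in 4, Eif2ak3 in 5, Oas3 and Xbp1 in 6, Ifit1 and Nupr1 in 7, Ifi204 in 8, Parp14 in 10, and Igtp and Xaf1 in 11. All 36 stayed called without HT-DNA+AOA replicate 1 and without replicate 3. The causes of these differences were not tested.

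The genes given here are called members of the gene lists and the 8 largest interactions, so their makeup follows the lists, of which that of interferon-stimulated genes is the longest. Of all 149 genes called in the interaction 20 were on that list. Part of that list passed the filter on low counts only through groups other than AOA and AOA+Asp. Tlr3 differed by -3.63 (effect 2.32 without HT-DNA, -1.31 with it) and Plekha4 by -3.21 (-0.58 and -3.79). Igtp, Phf11d, Ifit1, Irf7 and Batf2 differed by -2.63, -2.52, -2.49, -2.42 and -2.37, and the transcript A530040E14Rik by -2.32. Igtp overlaps Irgm2 and Irf7 overlaps Phrf1, so reads of these pairs may be shared. Parp14 differed by -2.28, Usp18 by -2.20, the DNA exonuclease gene Trex1 by -2.02, Irgm1 by -1.85, Ifit2 by -1.82, Samd9l by -1.80, Oas3 by -1.64 and Rtp4 by -1.57. The transcription factors Irf1, Stat2 and Irf9 differed by -1.54, -1.48 and -1.19. The differences were -1.28 for the RNA sensor gene Rigi, -1.23 for Xaf1, -1.15 for Eif2ak2, -0.81 for Ifi204, -0.75 for Dhx58 and -0.74 for Oas1a. In 8 of the 19 genes named here from the list of interferon-stimulated genes the effect without HT-DNA was above 0 and that with HT-DNA below it. Of these 8, Ifit1, Parp14 and Samd9l were not called without HT-DNA (adjusted p = 0.103, 0.144 and 0.0634). All 19 were picked for a called interaction, a choice that favours effects far apart.

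Outside that group, Zfp36 differed by -1.16, Maff by -0.87, Nfkbia by -0.56, Nupr1 by -0.53, Cdkn1a by -0.64 and the cyclin gene Ccne2 by -0.68. Genes with a higher effect under HT-DNA were Pdgfrb (0.45) and the unfolded protein response genes Xbp1 (0.47), Eif2ak3 (0.69), Dnajb9 (0.70) and Herpud1 (0.92).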

How the results depend on the processing

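The 6600 genes called between AOA+Asp and AOA became 1023 when a 2-fold change was also required and 5427 to 6202 when 1 library was left out. The corresponding counts for AOA against Mock (6519) were 1066 and 5450 to 6473. AOA+Asp against Mock (923) gave 73 with the 2-fold minimum, 1603 after correction for GC content and length, 2460 when only those 2 groups were fitted, and 359 to 909 without 1 library. HT-DNA+AOA+Asp against HT-DNA+AOA (6799) gave 1101 with the minimum, 4275 with only those 2 groups, and 6665 to 6801 without 1 library. The interaction (149) gave 54 with the minimum, 322 by DESeq2, 413 after correction for GC content and length, 303 without the filter, 66 with 4 groups only, and 69 to 418 without 1 library. With the replicate block 6688 genes were called between AOA+Asp and AOA, though the labels do not say whether the numbers pair the cultures.

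Of 30 list medians, 1 stayed within its SD between replicates in every alternative. The median of the fibroblast markers changed sign, from -0.038 to 0.041 after correction for GC content and length, 0.048 by library totals and a range of -0.080 to 0.0012 when 1 library was left out, and Cd68 from -0.13 to 0.077 after the correction. The 127 genes followed singly were those picked for the largest changes among called genes whose groups did not overlap, which favours stable calls. Of these, 121 kept their call and direction in every alternative run, and none changed direction. Other genes named in the text were not followed singly, among them those with an adjusted p near 0.05. Fosb, Zbp1, mt-Co2, mt-Nd4, Hspa1a and Gm44502 lost their call in at least 1. Library totals moved the median of all genes by 0.085. The cause of these shifts was not tested. With 3 cultures a group, 1 line and no aspartate group without AOA, the values hold for these cultures, and genes under the filter, such as Ifnb1, could not be tested. Krt19, the 1 epithelial marker tested, gave no value with 10 counts required in every library or with only the 2 groups fitted.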

Other observations

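Between AOA+Asp and AOA, of 11684 protein-coding genes tested 26.0% were higher and 24.6% lower with aspartate, and of 1428 long noncoding RNAs 13.1% and 16.6%.

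Some regulators of autophagy and nutrient sensing rose with aspartate inside the mixed lysosomal list. Fnip1, a partner of folliculin at the lysosome, rose with a log2 fold change of 1.0 (adjusted p = 5.89e-06), Gla, a lysosomal galactosidase, with 0.71 (adjusted p = 9.99e-06), Tfeb, the transcription factor of lysosomal genes, with 0.57 (adjusted p = 0.00507) and Gabarapl1, of the autophagosome membrane, with 0.54 (adjusted p = 5.47e-06), while Hexa and Lamp1 fell with log2 fold changes of -0.44 (adjusted p = 0.000594) and -0.30 (adjusted p = 0.000226). Among glutathione and redox genes, Gclm, Gsr and G6pdx rose with log2 fold changes of 0.65 (adjusted p = 3.33e-07), 0.48 (adjusted p = 2.13e-05) and 0.43 (adjusted p = 1.39e-05), while Fth1, a ferritin chain, and Taldo1 fell with log2 fold changes of -0.29 (adjusted p = 0.0204) and -0.29 (adjusted p = 0.0305). Feedback genes of the ERK pathway that rose included, besides Etv1, Dusp1 (log2 fold change 0.42, adjusted p = 0.00257), which also stood above Mock (log2 fold change 0.55, adjusted p = 0.00256), and Spred1 (log2 fold change 0.45, adjusted p = 0.000646).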
